A study of Mus musculus with 6 samples.

Results

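Hmga2, Zeb2 and Pdgfra are genes of the mesenchymal state whose RNA was followed in mouse tumours of 2 kinds, grown from cells with a CRISPR guide to Uhrf1 (sgUhrf1) or from cells with a non-targeting guide (sgNT). They are 3 of 10766 genes that could be named by position in the count tables and 3 of the 4578 that had enough counts to be tested. Each gene was taken from the row whose counted intervals cover at least 50 bp of exons of that gene and of no other, small RNA genes set aside, and from the row with most counts where several did. The 3 genes were chosen by their lower counts in sgUhrf1 than in sgNT tumours, the contrast shown here, so their values are given as a description, with no test.

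The cells were LG1233-OVA, a mouse lung cancer line, made into stable lines with CRISPR/Cas9 and labelled as an Uhrf1 knockout (sgUhrf1) or wild type (sgNT). For each of 3 sgUhrf1 and 3 sgNT tumours, 1000000 cells were placed under the skin of a female C57BL/6 mouse and the whole tumour was taken on day 27. Whether a line was 1 clone or a pool is not stated in the labels, and host cells in either group kept an intact Uhrf1. Poly-A RNA was sequenced as read pairs. Replicates are labelled as biological, and the replicate numbers did not pair the tumours.

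In epithelial to mesenchymal transition, cells lose cell to cell junctions and keratins and take up a migratory, fibroblast-like program. Zeb2 is a zinc finger repressor that binds E-box sequences at epithelial genes such as Cdh1, which encodes E-cadherin, and it is kept down by the miR-200 family in epithelial cells. Hmga2 is an AT-hook chromatin protein of embryonic tissue that is limited by let-7 microRNAs and reappears in aggressive lung cancers. Pdgfra is a receptor tyrosine kinase for platelet-derived growth factors and a common marker of mesenchymal cells, fibroblasts among them.

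Some of the sequence behind these roles is shown first, because Uhrf1 is known for maintaining methylation of the cytosine in CG dinucleotides and the microRNA families are the best known regulators of Hmga2 and Zeb2. Neither DNA methylation nor microRNA was measured in these libraries. Promoter windows of 300 bases, 250 before and 50 after a start site, came from RefSeq on GRCm38.p6, with every CG in capitals.
Hmga2 promoter, chr10:120476420-120476719 (minus strand): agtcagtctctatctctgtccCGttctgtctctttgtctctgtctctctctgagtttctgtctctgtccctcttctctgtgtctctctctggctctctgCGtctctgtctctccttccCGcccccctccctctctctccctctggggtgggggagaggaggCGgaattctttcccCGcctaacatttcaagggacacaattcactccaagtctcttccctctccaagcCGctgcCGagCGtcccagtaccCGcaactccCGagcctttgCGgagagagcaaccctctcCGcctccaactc
Zeb2 promoter, upstream start, chr2:45117393-45117692 (minus strand): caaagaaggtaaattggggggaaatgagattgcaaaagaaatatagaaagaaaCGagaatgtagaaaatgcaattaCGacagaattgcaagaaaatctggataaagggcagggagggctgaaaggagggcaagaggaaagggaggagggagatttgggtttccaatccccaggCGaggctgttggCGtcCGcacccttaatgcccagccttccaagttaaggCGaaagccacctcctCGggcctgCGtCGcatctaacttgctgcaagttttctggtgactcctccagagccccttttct
Zeb2 promoter, downstream start, chr2:45110228-45110527 (minus strand): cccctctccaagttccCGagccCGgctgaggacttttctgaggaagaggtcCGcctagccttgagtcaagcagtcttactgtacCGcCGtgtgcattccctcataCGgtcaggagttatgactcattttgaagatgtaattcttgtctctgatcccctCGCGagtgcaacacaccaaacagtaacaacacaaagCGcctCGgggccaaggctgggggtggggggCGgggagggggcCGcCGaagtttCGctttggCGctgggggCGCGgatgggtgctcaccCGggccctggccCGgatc
Pdgfra promoter, chr5:75152001-75152300 (plus strand): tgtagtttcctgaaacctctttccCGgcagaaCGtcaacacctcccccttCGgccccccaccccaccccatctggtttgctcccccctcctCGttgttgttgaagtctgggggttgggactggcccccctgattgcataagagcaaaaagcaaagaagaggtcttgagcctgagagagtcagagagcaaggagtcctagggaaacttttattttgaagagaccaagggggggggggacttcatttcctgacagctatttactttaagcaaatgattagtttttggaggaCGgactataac

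The Hmga2 window held 12 CG dinucleotides and the Pdgfra window 5, against a median of 7 over 32851 promoter windows of the same length. Of all windows, 39.6% held at least as many as that of Hmga2 and 62.0% at least as many as that of Pdgfra. Zeb2 has 4 windows in the table. The most upstream held 9 and the most downstream 19, a number reached by 28.1% of all windows, and both of the others held 8. These counts describe sequence alone. The E-box letters CACCTG, searched on both strands, were in none of the 6 windows and in 20.2% of all windows.

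The mature microRNAs, also from RefSeq, are given with their seed, bases 2 to 8, in capitals. Members of the let-7 family share 1 seed, miR-200b, miR-200c and miR-429 share another, and miR-200a and miR-141 share a seed that differs from it.
let-7a-5p: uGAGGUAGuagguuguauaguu
miR-98-5p: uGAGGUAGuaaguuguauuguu
miR-200b-3p: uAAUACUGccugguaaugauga
miR-200c-3p: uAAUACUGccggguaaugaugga
miR-429-3p: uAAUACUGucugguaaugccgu
miR-200a-3p: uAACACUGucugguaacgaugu
miR-141-3p: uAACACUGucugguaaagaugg

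The longest annotated 3′ untranslated region of each gene was searched on the transcribed strand for the letters that pair with a seed, CTACCTC for let-7, CAGTATT for miR-200b and CAGTGTT for miR-200a, and 21001 protein-coding genes were searched in the same way. Hmga2 held 4 let-7 matches in 3014 bases, and 9.03% of all regions held any. At least as many were found in 0.0571% of regions. Zeb2 held 5 miR-200b matches in 4941 bases, where 13.3% of all regions held any and 0.0286% at least as many. Longer regions have more room for matches, and these 2 are long. Zeb2 also held 4 miR-200a matches and Pdgfra 2 in 3115 bases, with a match in 17.2% of all regions. Neither Zeb2 nor Pdgfra held a let-7 match, and neither Hmga2 nor Pdgfra a miR-200b match. The Hmga2 and Zeb2 matches follow on GRCm38, in the direction of the transcript, with the match in capitals.
Hmga2, the first let-7 match, chr10:120364224-120364247 (minus strand): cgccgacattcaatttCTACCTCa
Hmga2, the second let-7 match, chr10:120362987-120363010 (minus strand): tccccactcctcaataCTACCTCt
Hmga2, the third let-7 match, chr10:120362549-120362572 (minus strand): cctgatttgcaaggaaCTACCTCc
Hmga2, the fourth let-7 match, chr10:120361691-120361714 (minus strand): caatcaaaacacactaCTACCTCt
Zeb2, the first miR-200b match, chr2:44988173-44988196 (minus strand): ccgcactaccatacatCAGTATTt
Zeb2, the second miR-200b match, chr2:44988108-44988131 (minus strand): ccgcactacagtgcatCAGTATTa
Zeb2, the third miR-200b match, chr2:44987746-44987769 (minus strand): tttgaagcacccgtgtCAGTATTa
Zeb2, the fourth miR-200b match, chr2:44987661-44987684 (minus strand): tgttcattaattttgtCAGTATTa
Zeb2, the fifth miR-200b match, chr2:44987527-44987550 (minus strand): ttcatactgtagtgtaCAGTATTa

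What each row counts decides what can be said of its gene. The reads lie at positions of one mouse genome build while the row annotation belongs to the next, so the row names do not name the genes counted and a row covers a part of its gene. Zeb2 (chr2:44983632-45117395, minus strand) had 3875 bp of exon under its row, all of it in exons of protein-coding transcripts and 2260 bp of it coding sequence. Pdgfra (chr5:75152292-75198215, plus strand) had 1488 bp of exon, of which 1059 bp were in exons of protein-coding transcripts and 650 bp were coding. Both rows also count intronic bases, 5565 for Zeb2 and 7667 for Pdgfra, and bases outside the gene, 10763 of the 20203 bp of the Zeb2 row and 595 of the 9750 bp of the Pdgfra row.

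Hmga2 (chr10:120361275-120476469, minus strand) had 1329 bp of exon under its row, and 0 bp of it belonged to an exon of a protein-coding transcript. The counted stretch, chr10:120470493-120471821, is an exon of a transcript annotated as a retained intron, which lies in an intron of the messenger RNA. The row also counts 536 bp of intron and 58 bp outside the gene. The values under Hmga2 thus do not count its spliced messenger RNA. Of 4298 protein-coding genes tested, 109 (2.54%) had a row of that kind. Of those 109, 19 rose and 3 fell, where 20.6% of all tested genes rose and 21.5% fell. The median log2 fold change of the 109 was 0.45, a median above 0 where the Hmga2 row was lower. Such rows held between 0.0955% and 0.143% of the counts of sgUhrf1 tumours and between 0.0753% and 0.109% in sgNT tumours. Some other rows named below have only a small part of their exon bases in exons of protein-coding transcripts. That part was 143 of 1067 bp for Spint2, 138 of 609 bp for Ehf, 222 of 2505 bp for Rbbp4 and 77 of 940 bp for Tcf4.

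**Figure D1:**
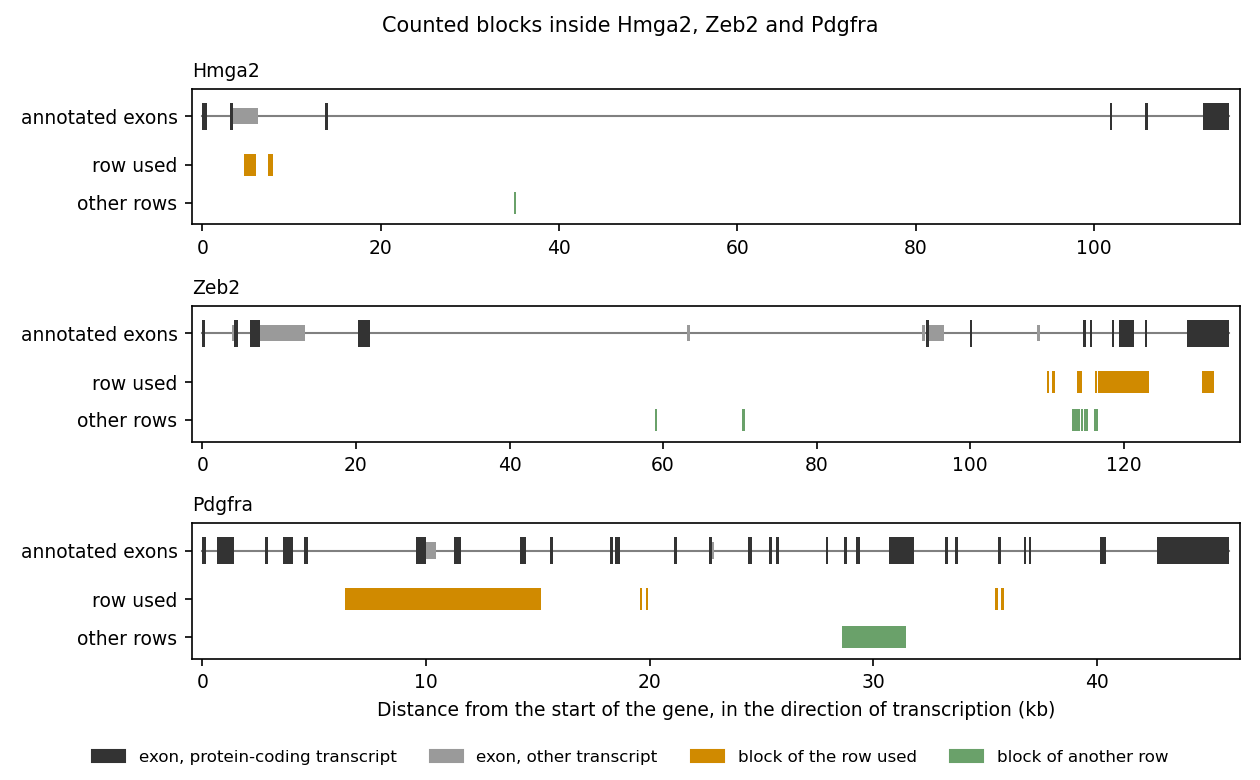
Annotated exons and counted blocks of Hmga2, Zeb2 and Pdgfra, by distance from the start of the gene in kb; dark boxes are exons of protein-coding transcripts, grey boxes exons of other transcripts, orange boxes blocks of the row used and green boxes blocks of other rows. The orange blocks of Hmga2 touch no dark box, while those of Zeb2 and Pdgfra cover several.

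Over the whole series, tumours had between 5462555 and 6375069 counts. The targeted gene had 121, 73.0 and 89.9 counts per 1000000 TMM-scaled counts (CPM) in sgUhrf1 tumours and 133, 136 and 98.2 CPM in sgNT tumours over 690 bp of its exons, so the groups overlapped in the RNA of Uhrf1 itself. The labels do not give the position of the cut, so this does not check the edit. Of the 4578 genes, 945 (20.6%) rose and 985 (21.5%) fell at an adjusted p under 0.05 in the quasi-likelihood test of edgeR, around a median log2 fold change of -0.00. The 6 skeletal muscle genes with a row of their own summed to 400 CPM in sgUhrf1 replicate 1 and 473 CPM in sgNT replicate 2, and to 24.0 CPM or less in the other 4 tumours.

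All 3 genes were lower in sgUhrf1 tumours, at the level of the rows that stand for them. The row over Hmga2 had 13, 7 and 12 counts in sgUhrf1 tumours and 83, 44 and 45 counts in sgNT tumours. On the CPM scale it stood at 2.30, 1.11 and 2.64 in sgUhrf1 tumours and at 13.1, 6.52 and 7.98 in sgNT tumours. Every sgUhrf1 tumour lay below every sgNT tumour, with sgUhrf1 replicate 2 the lowest and sgNT replicate 1 well above its group. The group means were 2.02 ± 0.803 CPM in sgUhrf1 and 9.21 ± 3.48 CPM in sgNT (SD, n = 3 each), a log2 fold change of -2.20 ± 0.48 (SE). With 32 counts in sgUhrf1 against 172 in sgNT, this is the most thinly counted of the 3, and 3 counts, the limit that a count of 0 allows, equal 0.445 to 0.660 CPM.

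The row over Zeb2, the transcriptional repressor, had 293, 124 and 284 counts in sgUhrf1 tumours and 652, 1009 and 608 in sgNT tumours. Its CPM values were 51.9, 19.7 and 62.4 in sgUhrf1 tumours and 103, 150 and 108 in sgNT tumours. The groups again did not overlap: sgUhrf1 replicate 2 was at less than the other 2 tumours of its group and sgNT replicate 2 was the highest of all 6. The means were 44.7 ± 22.3 CPM in sgUhrf1 and 120 ± 25.5 CPM in sgNT (SD, n = 3 each), with a log2 fold change of -1.43 ± 0.37 (SE).

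The row over Pdgfra, the growth factor receptor, had 47, 12 and 33 counts in sgUhrf1 tumours and 91, 163 and 107 in sgNT tumours. It stood at 8.32, 1.90 and 7.26 CPM in sgUhrf1 tumours and at 14.4, 24.2 and 19 CPM in sgNT tumours. The same 2 tumours, sgUhrf1 replicate 2 and sgNT replicate 2, were the lowest and the highest. The means were 5.83 ± 3.44 CPM in sgUhrf1 and 19.2 ± 4.88 CPM in sgNT (SD, n = 3 each), with a log2 fold change of -1.73 ± 0.49 (SE). In whole tumours, fewer cells that express a gene and less RNA of it per cell cannot be told apart.

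**Figure D2:**
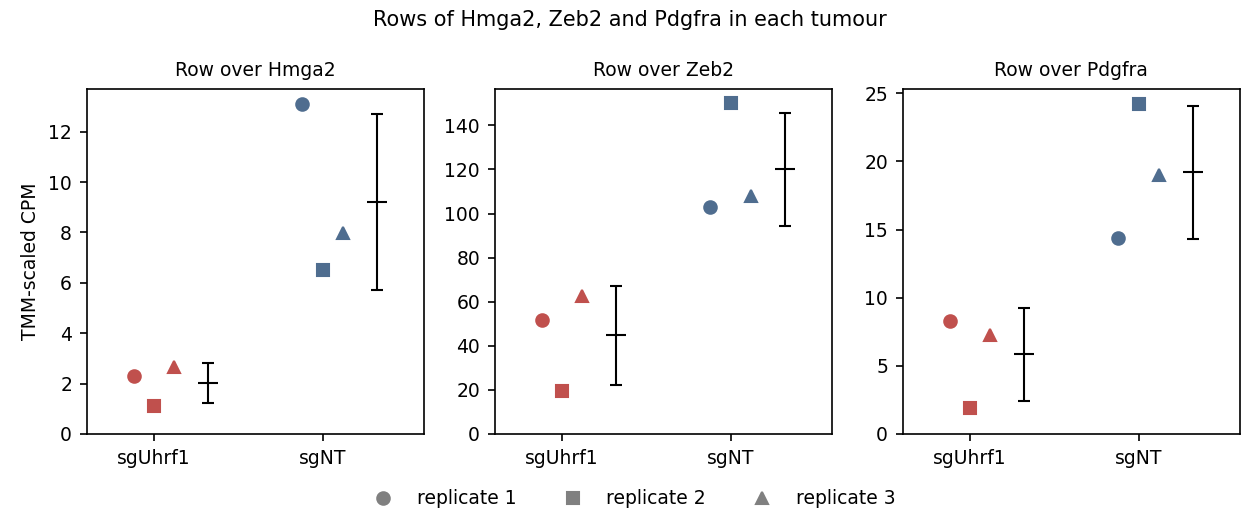
TMM-scaled CPM of the rows over Hmga2, Zeb2 and Pdgfra in 3 sgUhrf1 tumours and 3 sgNT tumours; each symbol is a tumour, shaped by its replicate number, and the bars give the mean ± SD of each group. The groups do not overlap in any panel, and sgUhrf1 replicate 2 is the lowest tumour in each.

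Groups without overlap in this direction were common: 1356 of the 4578 tested genes (29.6%) had every sgUhrf1 tumour below every sgNT tumour, and since the genes were picked for this contrast nothing is read from their count. Leaving out sgUhrf1 replicate 2 gave log2 fold changes of -1.90 for Hmga2, -1.08 for Zeb2 and -1.31 for Pdgfra. Without sgNT replicate 1, the highest for Hmga2, that row stood at -1.88. Without sgNT replicate 2, the highest for both others, the values were -1.27 for Zeb2 and -1.55 for Pdgfra. Levels were not compared between the 3 genes, because their rows cover different parts of them.

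Other rows inside the same genes, which did not stand for them, gave further values. A second row over Pdgfra covers 1032 bp of its exons, 479 bp of them coding, and no base of the first. It had 5.67, 3.49 and 3.96 CPM in sgUhrf1 tumours and 13.8, 15.4 and 14.2 CPM in sgNT tumours, a log2 fold change of -1.72 ± 0.33 (SE) beside -1.73 in the row with more counts. Its sgNT tumours lay closer together, at 14.5 ± 0.855 CPM (SD, n = 3).

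A row with 45 bp of Zeb2 coding sequence, just short of the 50 bp that names a row, had 7, 1 and 11 counts in sgUhrf1 tumours and 48, 92 and 51 in sgNT tumours. Its log2 fold change was -3.04 ± 0.67 (SE), on 19 counts in sgUhrf1 against 191 in sgNT, and 1945 of its 1990 bp are intron. It repeated the order of the Zeb2 row, with sgUhrf1 replicate 2 lowest and sgNT replicate 2 highest. In Hmga2, a row of 93 bp inside an intron had 0, 1 and 0 counts in sgUhrf1 tumours and 22, 6 and 5 in sgNT tumours, with sgNT replicate 1 highest as in the row used. A last row within Zeb2 introns held 1 count in all. Counting was not by strand, so RNA from the opposite strand would be included in each of these rows.

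The genes whose profile over the 6 tumours lay nearest were found by the root mean square difference of log2 CPM, each profile centred on its own mean, among genes averaging at least 3 in log2 CPM. For Zeb2, of 3066 genes the nearest were Gm28875 at 0.114, Cav1, which encodes the caveolar coat protein caveolin, at 0.209, and Jcad, a junctional protein of endothelial cells, at 0.236. For Pdgfra they were Gm28875 at 0.196, the cell cycle transcription factor E2f1 at 0.208 and Zeb2 itself at 0.246. Cav1 had 517, 228 and 582 CPM in sgUhrf1 tumours and 1023, 1207 and 1369 CPM in sgNT tumours, again with sgUhrf1 replicate 2 lowest. The rows of Gm28875 and E2f1 cover 134 and 89 bp of exon.

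The Hmga2 profile was of another shape, since its sgNT maximum was in replicate 1 and not in replicate 2. Of 3067 genes its nearest were C330007P06Rik at 0.335, Sgce, which encodes epsilon-sarcoglycan, at 0.361, and Gm9833 at 0.373. Hmga2 lay 0.529 from Zeb2 and 0.598 from Pdgfra, both farther than Zeb2 from Pdgfra. These distances are descriptions over tumours that fall into 2 separate groups. The Hmga2 row itself averaged under the floor of 3 in log2 CPM set for its neighbours. It had 13, 7 and 12 counts in sgUhrf1 tumours, and the part of counting error in its distances was not tested.

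Epithelial genes went the other way in the same tumours. Of 73 genes in 3 lists of junctions and keratins, epithelial regulators, and proteases and polarised traffic, 28 had a row of their own and 19 were tested. Of these 19, 14 rose and 1 fell, where 20.6% of all tested genes rose and 21.5% fell. The median log2 fold change of the 19 was 2.53, where the median of all tested genes was -0.00. Some of the 19, such as Ehf (18, 15 and 2 counts in sgNT tumours) and Foxa3 (28, 3 and 0), were tested only through sgUhrf1 tumours. Genes of that kind could hardly be called lower. With no filter on low counts, 17 of the 28 rose and 1 fell. Cdh1, the best known target of Zeb2, rose to 847, 1381 and 901 CPM in sgUhrf1 tumours, against 246, 159 and 135 CPM in sgNT tumours, a log2 fold change of 2.53 ± 0.29 (SE) with an adjusted p of 0.000408 in edgeR. Its highest tumour was sgUhrf1 replicate 2, the tumour lowest in all 3 mesenchymal rows, in the Hmga2 row on only 7 counts against 13 and 12.

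Among junction and keratin genes 5 of 8 rose and 1 fell, where 20.6% of all tested genes rose and 21.5% fell. Krt7, a keratin of simple epithelia, had 831, 1425 and 1203 CPM in sgUhrf1 tumours and 189, 87.0 and 19.5 CPM in sgNT tumours (log2 fold change 3.55 ± 0.66 SE, edgeR adjusted p = 0.00347), and stood at 4.41 without sgNT replicate 1. Cgn, which encodes the tight junction protein cingulin, rose by 2.90 ± 0.47 on the log2 scale (SE, edgeR adjusted p = 0.00179), and F11r, a tight junction adhesion molecule, by 2.09 ± 0.25 (adjusted p = 0.000534). Tjp1, the tight junction scaffold ZO-1, fell by 0.63 on the log2 scale (edgeR adjusted p = 0.0149), while Krt20 stood at 0.35 and did not pass. The Tjp1 call was lost without sgUhrf1 replicate 1 or sgNT replicate 2, at adjusted p values of 0.0518 and 0.0649 in edgeR. Evpl, which encodes the desmosomal protein envoplakin, rose by 2.15 but stood at 1.12 (edgeR adjusted p = 0.0537) without sgUhrf1 replicate 2, its highest tumour, and missed the threshold without sgNT replicate 2 or 3 as well, at 0.0599 and 0.0556.

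Among epithelial regulators 6 of 8 rose and 0 fell, where 20.6% of all tested genes rose and 21.5% fell. Of the 8, 0 were lower at an unadjusted p under 0.05 or in DESeq2 or limma-voom. Ehf, an ETS transcription factor of epithelia, had 36.5, 55.9 and 53.2 CPM in sgUhrf1 tumours and 2.85, 2.22 and 0.354 CPM in sgNT tumours. Hnf4a, a nuclear receptor of gut and liver epithelium, had 267, 490 and 402 CPM in sgUhrf1 tumours and 81.7, 31.1 and 3.01 CPM in sgNT tumours, with a log2 fold change of 3.32 that became 4.46 without sgNT replicate 1. Rbm47, an RNA-binding protein, rose by 2.84 ± 0.37 on the log2 scale (SE, edgeR adjusted p = 0.000725) and Klf5, a zinc finger factor of epithelia, by 1.58 ± 0.22 (adjusted p = 0.00091). Foxa3, a forkhead factor, rose by 3.82, by 6.47 without sgNT replicate 1, and missed the threshold without sgNT replicate 2 (3.33, edgeR adjusted p = 0.0628). All 3 tested genes of the protease and traffic list rose, where 20.6% of all tested genes rose. Spint2, a serine protease inhibitor, rose by 4.54 and Tmprss2, a membrane serine protease, by 3.32. Vil1, the microvillus protein villin, rose by 4.22, and by 3.61 without sgUhrf1 replicate 2. Vil1 (59, 61 and 9 counts in sgNT tumours) and Tmprss2 (46, 43 and 5) had enough counts to be tested only with sgUhrf1 tumours. With rows that are shared by several genes counted too, 27 of 41 epithelial genes rose and 3 fell. Of all tested genes with a row of their own, 20.6% rose and 21.5% fell.

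Side by side in each tumour, the mean log2 CPM of the 19 epithelial genes was 6.53, 7.44 and 6.86 in sgUhrf1 tumours and 5.15, 4.52 and 3.80 in sgNT tumours. Some of the 19 had enough counts to be tested only with sgUhrf1 tumours. The gap between the groups in this mean is thus not free of the count filter. Within the sgUhrf1 group, replicate 2 was highest in the epithelial mean and lowest in Hmga2, Zeb2 and Pdgfra. For Hmga2 that order rests on 7 counts against 13 and 12. Within the sgNT group the order of the mean did not mirror. There replicate 1 had the highest epithelial mean together with the highest Hmga2 value and the lowest Zeb2 and Pdgfra values. Replicate 3, with the lowest epithelial mean, was highest in none of the 3. The summed CPM of the 28 epithelial genes with a row of their own gave another order. This sum was 4131, 6997 and 5333 in sgUhrf1 tumours and 1581, 1218 and 1242 in sgNT tumours. By the sum, sgNT replicate 1 was highest and sgNT replicate 2 lowest. In Zeb2 and Pdgfra sgNT replicate 1 was lowest and sgNT replicate 2 highest, while Hmga2 had the order of the sum. With 3 tumours in each of 2 separate groups no correlation is given.

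**Figure D3:**
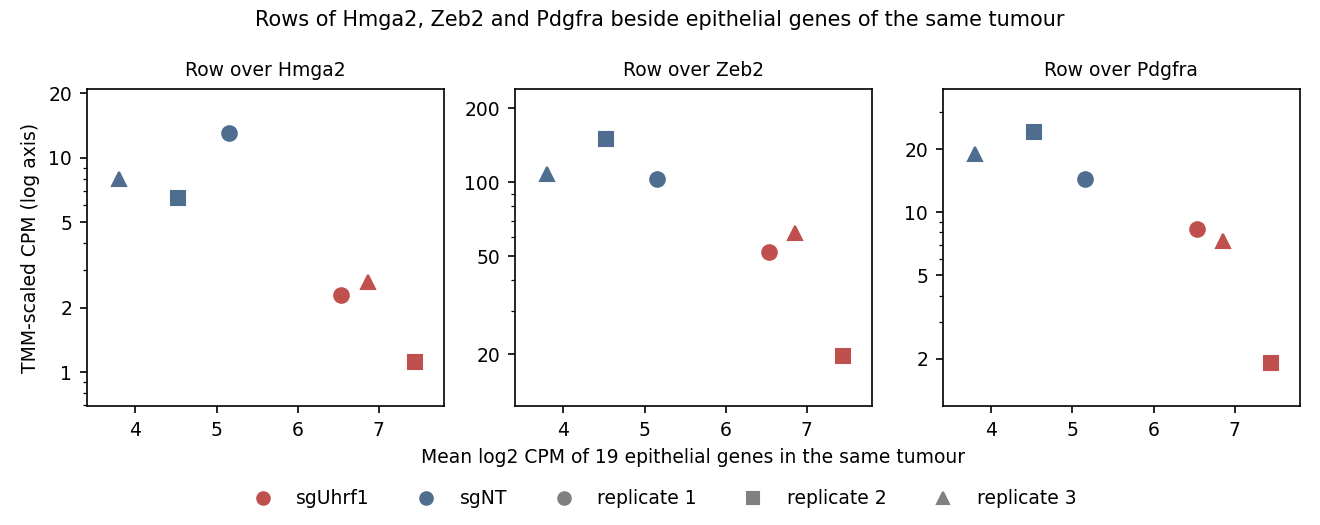
TMM-scaled CPM of the rows over Hmga2, Zeb2 and Pdgfra (log axis) against the mean log2 CPM of 19 epithelial genes in the same tumour, red for sgUhrf1 and blue for sgNT, shaped by replicate number. The sgUhrf1 tumours lie at 6.53 to 7.44 on the epithelial axis and the sgNT tumours at 3.80 to 5.15, and the groups overlap on neither axis. Some of the 19 genes had enough counts to be tested only with sgUhrf1 tumours.

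Other transcription factors of the mesenchymal transition did not move as 1 group. Of 6 tested, 2 fell and 1 rose, with a median log2 fold change of -0.26, where 21.5% of all tested genes fell and 20.6% rose. Tcf3, a basic helix-loop-helix factor, fell to 55.9, 77.1 and 44.0 CPM in sgUhrf1 tumours, against 111, 127 and 151 CPM in sgNT tumours. Tcf4, of the same family, fell by 1.00 on the log2 scale (edgeR adjusted p = 0.0323). It missed the threshold without any 1 of sgUhrf1 replicates 2 and 3 and sgNT replicates 2 and 3, at 0.0666 to 0.121. Tbx2, a T-box repressor, rose by 3.49 ± 0.42 (SE, edgeR adjusted p = 0.000488). With 8, 6 and 4 counts in sgNT tumours, Tbx2 was tested only through sgUhrf1 tumours and could hardly be called lower. Snai1, Prrx2 and Foxc1 stood at -0.30, -0.22 and 0.02 and did not pass.

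Zeb1, the paralogue of Zeb2, could be read only from a row shared with Gm10125. That row had 211, 113 and 170 CPM in sgUhrf1 tumours and 193, 257 and 197 CPM in sgNT tumours. The groups overlapped, and its log2 fold change was -0.39 ± 0.24 (SE, edgeR adjusted p = 0.23). The difference between Zeb1 and Zeb2 was not tested.

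Of 13 tested effector genes of the mesenchymal transition, 7 fell and 2 rose, with a median of -0.88, where 21.5% of all tested genes fell and 20.6% rose. The number higher was 4 without sgUhrf1 replicate 2, and 1 without sgUhrf1 replicate 1, sgNT replicate 1 or sgNT replicate 3. At an unadjusted p under 0.05 it was 4. Axl, a receptor tyrosine kinase, fell to 34.3, 18.1 and 25.7 CPM in sgUhrf1 tumours, against 164, 299 and 351 CPM in sgNT tumours, a log2 fold change of -3.38 ± 0.34 (SE, edgeR adjusted p = 0.000225). Fn1, the matrix protein fibronectin, fell to 2101, 1987 and 1165 CPM in sgUhrf1 tumours, against 4120, 9540 and 9093 CPM in sgNT tumours. Tgfbi, a matrix protein induced by TGF-beta, Itga5 and Itgav, both integrin chains, and Serpine2, a protease inhibitor, fell as well, with log2 fold changes of -1.99, -1.18, -1.08 and -0.88. Serpine2 missed the threshold without any 1 of sgUhrf1 replicates 1 and 3 and sgNT replicates 1 and 2, at edgeR adjusted p values of 0.0515 to 0.0779. The rows of Tgfbi and Axl cover 57 and 104 bp of exon. Vim, the intermediate filament vimentin, fell by 1.13 (edgeR adjusted p = 0.0289) and missed the threshold, at 0.059 to 0.111, without sgUhrf1 replicate 1 or 2 or sgNT replicate 2 or 3.

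The effectors that rose were Tpm2, a tropomyosin, by 1.34, and Cd44, a hyaluronan receptor, by 1.77; like that of Hmga2, the Cd44 row holds 0 bp of protein-coding transcript exons. Tpm2 missed the threshold without sgUhrf1 replicate 1, sgNT replicate 1 or sgNT replicate 3, at edgeR adjusted p values of 0.0655 to 0.0794. Sparc stood at 0.14 and did not pass. Over both mesenchymal lists 9 of 19 genes fell and 3 rose, 5 fell when the muscle-rich pair of tumours was left out, and 5 rose without sgUhrf1 replicate 2.

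Partners of Zeb2 and genes of TGF-beta signalling gave 3 lower and 0 higher of 7 tested in edgeR, with a median of -0.58. Over all tested genes 21.5% fell and 20.6% rose. At an unadjusted p under 0.05, 4 were lower and 0 higher, and DESeq2 and limma-voom also called 0 higher. Rbbp4, a histone-binding subunit of the NuRD complex that Zeb2 recruits, fell to 174, 187 and 196 CPM in sgUhrf1 tumours, against 343, 406 and 455 CPM in sgNT tumours (log2 fold change -1.11 ± 0.17 SE, edgeR adjusted p = 0.00147). Gatad2b, another NuRD subunit, fell by 0.84 and missed the threshold without sgNT replicate 2 (edgeR adjusted p = 0.0746). Bmpr2, a bone morphogenetic protein receptor, fell by 2.42 on few counts. It stood at -3.13 without sgUhrf1 replicate 1, and missed the threshold without sgUhrf1 replicate 2 or 3 or sgNT replicate 2, at edgeR adjusted p values of 0.066, 0.0647 and 0.131. Without sgNT replicate 2 it stood at -1.60. Of the others, Chd4, Hdac1 and Mta1, also NuRD subunits, stood at -0.58, -0.37 and -0.26 and Tgfbr1, a TGF-beta receptor, at -0.56, none past the threshold in edgeR. Without sgNT replicate 3, Tgfbr1 stood at -0.74 and passed (edgeR adjusted p = 0.0404).

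In the Hmga2 and let-7 list 2 of 7 tested genes fell and 0 rose in edgeR, with a median of 0.19. Over all tested genes 21.5% fell and 20.6% rose. At an unadjusted p under 0.05, 3 were lower and 1 was higher, and DESeq2 and limma-voom called 0 higher. Plag1, a zinc finger factor whose gene is known in human cells to be activated by HMGA2, fell to 5.84, 5.24 and 4.84 CPM in sgUhrf1 tumours, against 18.8, 24.5 and 29.6 CPM in sgNT tumours (log2 fold change -2.19 ± 0.30 SE, edgeR adjusted p = 0.000803). Igf2bp2, an RNA-binding protein known in mouse as a target of Hmga2, fell by 1.34 ± 0.26 (SE, edgeR adjusted p = 0.00431). Dicer1, Drosha and Dis3l2, enzymes of microRNA processing and decay, stood at 0.40, -0.44 and 0.64, and Igf2bp1 and the imprinted RNA H19 at 0.30 and 0.19, none past the threshold in edgeR. Drosha passed in limma-voom (-0.44, adjusted p = 0.0465), and Dicer1 in edgeR without sgUhrf1 replicate 3 (0.50, adjusted p = 0.0351).

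Hmga1, the paralogue of Hmga2, shares its row with AI413582 and Gm49774. The row had 1912, 1386 and 1907 CPM in sgUhrf1 tumours and 4238, 5574 and 6735 CPM in sgNT tumours, a log2 fold change of -1.67 ± 0.26 (SE, edgeR adjusted p = 0.00138). Igf2bp3 shares its row with Gpnmb and Malsu1 and stood at -0.51 (edgeR adjusted p = 0.0481). The rows over Lin28b, which blocks let-7 maturation, and over the cyclin Ccnd2 held 0 counts in all 6 tumours, and the Lin28b row covers no exon of a protein-coding transcript.

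Among ligands, receptors and signalling proteins of the PDGF pathway 3 of 9 tested genes fell and 2 rose, with a median of -0.89. Over all tested genes 21.5% fell and 20.6% rose, and nothing is read from the counts of this list. The ligand Pdgfa, which binds the receptor encoded by Pdgfra, fell to 51.5, 31.3 and 36.5 CPM in sgUhrf1 tumours, against 79.0, 93.8 and 67.2 CPM in sgNT tumours (log2 fold change -1.01 ± 0.24 SE, edgeR adjusted p = 0.00962). Pdgfb stood at 0.01. Pdgfd rose by 0.95 (edgeR adjusted p = 0.0267), but not when sgUhrf1 replicate 2, sgNT replicate 2 or sgNT replicate 3 was left out, at adjusted p values of 0.0938, 0.118 and 0.0622 in edgeR. No row named Pdgfc, and the row over Plat, the protease that activates its protein, was shared by 4 genes and stood at -0.71 (edgeR adjusted p = 0.0291).

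The other PDGF receptor, Pdgfrb, a marker of pericytes, had 8.14, 2.38 and 2.42 CPM in sgUhrf1 tumours and 9.50, 15.1 and 9.92 CPM in sgNT tumours. The groups did not overlap, yet at -1.41 ± 0.52 (SE) it missed the threshold (edgeR adjusted p = 0.0551). It passed in DESeq2 (adjusted p = 0.0265) and limma-voom (adjusted p = 0.0271). Without sgUhrf1 replicate 1, its highest tumour in that group, it stood at -2.26 with an adjusted p of 0.00816. Downstream of the receptors, Shc1, an adaptor, and Stat3, a transcription factor, fell, with log2 fold changes of -0.89 and -1.16, and Pik3r1, the regulatory subunit of PI3 kinase, rose by 1.18 ± 0.27 (SE, edgeR adjusted p = 0.00853). Pik3ca, its catalytic partner, and Cbl stood at -1.55 and -0.35 and did not pass in edgeR. Pik3ca passed in DESeq2 (adjusted p = 0.0471) and, at -1.96, in edgeR without sgNT replicate 1 (adjusted p = 0.0246).

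**Figure D4:**
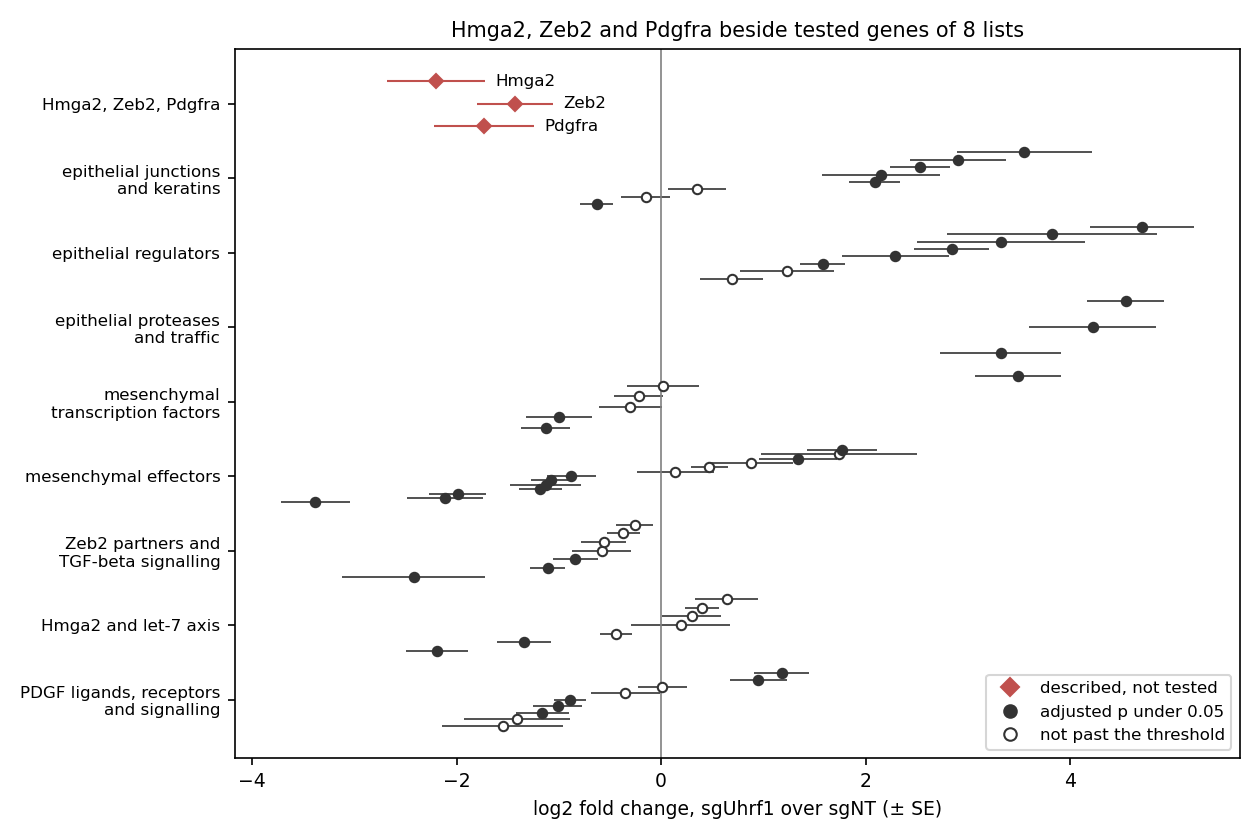
log2 fold change of sgUhrf1 over sgNT tumours ± SE for Hmga2, Zeb2 and Pdgfra (red diamonds, no test) and for the tested genes of 8 lists; filled circles passed an adjusted p of 0.05 in edgeR and open circles did not. Hmga2, Zeb2 and Pdgfra lie at -2.20, -1.43 and -1.73. Of 19 epithelial genes 14 lie to the right past the threshold, where 20.6% of all tested genes rose.

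Host cells in a tumour also express Zeb2 and Pdgfra, Zeb2 in macrophages and Pdgfra in fibroblasts, so their markers were read in the same tumours. The 13 fibroblast and pericyte markers with a row of their own, 10 of them tested, summed to between 6532 and 17296 CPM in sgUhrf1 tumours and to between 7777 and 12216 CPM in sgNT tumours, so the groups overlapped. Of the 10 tested, 2 rose, 2 fell and 6 did not pass, with a median of 0.00, where 20.6% of all tested genes rose and 21.5% fell. Col1a2, the collagen with most counts, stood at 0.57 and Dcn, which encodes decorin, at 0.41, neither past the threshold in edgeR. Without sgUhrf1 replicate 2, Col1a2 stood at 0.89 and passed (edgeR adjusted p = 0.0442). Fbln2 and Col5a1, matrix proteins, fell, with log2 fold changes of -3.07 and -1.76, and Col5a1 stood at -2.36 without sgUhrf1 replicate 1. Col14a1 and the surface protein Thy1 rose by 1.97 and 0.74, a call that Thy1 lost without any 1 of sgUhrf1 replicates 1 and 3 and the 3 sgNT tumours. The row named by position as Fbn1 held 0 counts in every tumour.

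The 9 macrophage markers with a row of their own, 8 of them tested, summed to 860, 328 and 1164 CPM in sgUhrf1 tumours and to 732, 843 and 556 CPM in sgNT tumours. Of the 8 tested, 1 rose and 1 fell, with a median of -0.31, where 20.6% of all tested genes rose and 21.5% fell. Aif1, a calcium-binding protein, rose by 2.15, and 1.50 without sgUhrf1 replicate 3. Mertk, a phagocytosis receptor whose row covers 54 bp of exon, fell by 1.64 (edgeR adjusted p = 0.0492). The Mertk call was lost without sgUhrf1 replicate 1 or any 1 sgNT tumour. In sgUhrf1 replicate 2, the tumour with least Zeb2 and Pdgfra, fibroblast and macrophage sums were also the lowest of all 6 tumours. In the other 2 sgUhrf1 tumours both sums were above every sgNT tumour, while Zeb2 and Pdgfra were below every sgNT tumour. Col1a2 made up most of the fibroblast sum, with means of 10888 CPM in sgUhrf1 and 7339 CPM in sgNT tumours. The mean log2 CPM of the 10 tested fibroblast markers was 7.20, 6.46 and 7.17 in sgUhrf1 tumours. In sgNT tumours it was 7.22, 7.42 and 6.94, so by that measure no sgUhrf1 tumour was above every sgNT tumour. The part of these cells in the Hmga2, Zeb2 and Pdgfra values was not tested further.

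The 7 endothelial markers with a row of their own, 6 of them tested, summed to between 88.9 and 151 CPM in sgUhrf1 tumours and to between 76.2 and 147 CPM in sgNT tumours, and edgeR called 0 of the 6. With p not adjusted and under 0.05, 2 were higher and 1 was lower, and DESeq2 and limma-voom called 1 and 0 of them. All 6 tested T and NK cell markers rose, where 20.6% of all tested genes rose. Some of them, such as Ctsw (7, 1 and 1 counts in sgNT tumours), Cd8b1 (14, 8 and 16) and Zap70 (6, 8 and 22), had enough counts to be tested only through sgUhrf1 tumours. Without the count filter, 6 of 7 rose. The 7 T and NK cell markers with a row of their own had sums of 111 to 270 CPM in sgUhrf1 tumours and 11.1 to 28.2 CPM in sgNT tumours. Y-linked genes, which the female hosts lack, summed to 162, 78.1 and 230 CPM in sgUhrf1 tumours and to 95.8, 71.2 and 70.5 CPM in sgNT tumours. Their sums were higher in each sgUhrf1 tumour but 1 than in every sgNT tumour, and the exception, replicate 2, was below sgNT replicate 1. The remaining marker lists had at most 2 tested genes each. In skeletal muscle Ckm and Atp2a1 stood at -0.19 and -0.06, and in fat Retn stood at 0.95, none past the threshold in edgeR, DESeq2 or limma-voom, nor under 0.05 with p not adjusted. Without sgNT replicate 2, Ckm stood at 5.73 and passed (edgeR adjusted p = 0.0253). In epidermis Lor fell by 1.31 and Ivl rose by 5.30 in edgeR, but Ivl did not pass in limma-voom (adjusted p = 0.088). Ivl stood at 3.96 without sgUhrf1 replicate 3 and 5.95 without sgNT replicate 2. Among Schwann cell genes Cdh19 rose by 6.20, and by 7.98 without sgNT replicate 1. It had 39, 28 and 23 counts in sgUhrf1 tumours against 1, 0 and 0 in sgNT tumours, so the size of its change is poorly set. Cdh19 and Ivl (7, 14 and 2 counts in sgNT tumours) had enough counts to be tested only through sgUhrf1 tumours.

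**Figure D5:**
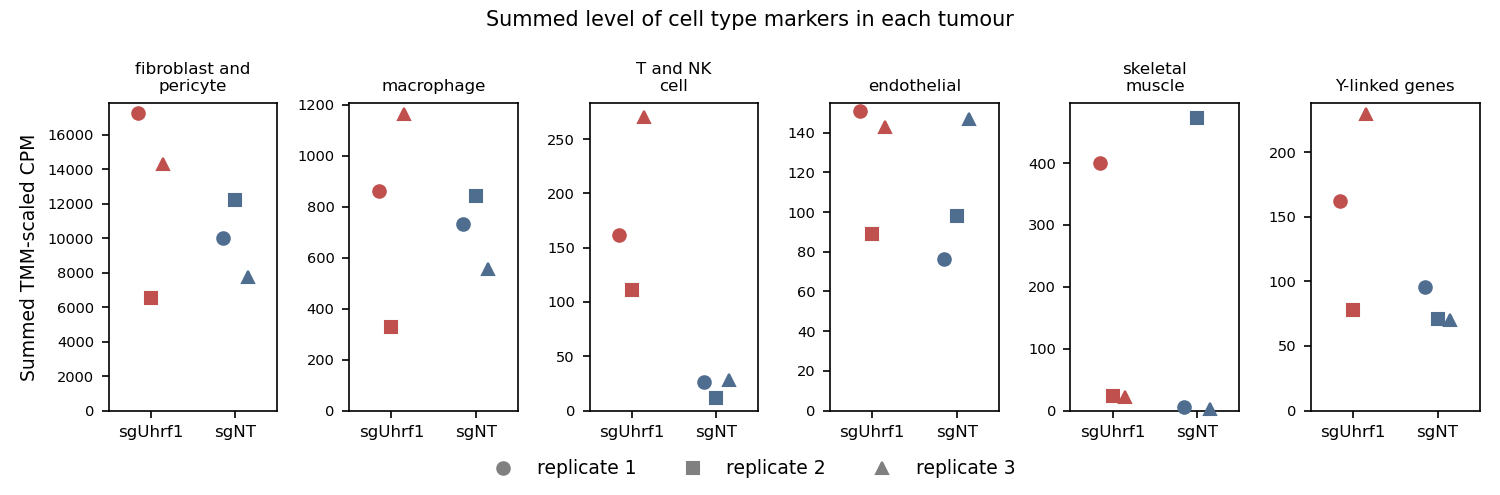
Summed TMM-scaled CPM of the markers of 5 cell types that have a row of their own and of Y-linked genes in each tumour, sgUhrf1 left and sgNT right in every panel, shaped by replicate number. Fibroblast, macrophage and endothelial sums overlap between the groups, T and NK cell sums do not, and sgUhrf1 replicate 2 is lowest in the fibroblast and macrophage panels.

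The labelled cell type, a lung cancer, was checked against 15 lung epithelial genes, of which 5 were tested. In this list 2 rose, 1 fell and 2 did not pass, where 20.6% of all tested genes rose and 21.5% fell. The 2 that rose, Sftpd (1, 5 and 1 counts in sgNT tumours) and Hopx, were tested only through sgUhrf1 tumours and could hardly be called lower. Sftpd, a surfactant protein, rose to 8.68, 64.9 and 56.7 CPM in sgUhrf1 tumours, against 0.158, 0.741 and 0.177 CPM in sgNT tumours. Hopx, a homeodomain protein of alveolar cells, rose by 5.44 on the log2 scale, and by 7.19 without sgNT replicate 2. The Hopx mean in sgNT tumours was 0.0494 CPM, where 3 counts equal 0.445 to 0.532 CPM, so the size of its change is poorly set. Lpcat1, an enzyme of surfactant lipid synthesis, fell by 2.16, and Sftpb and Abca3 stood at 0.80 and -0.51. The 5 genes summed to between 30.1 and 98.1 CPM in sgUhrf1 tumours and to between 29.9 and 41.6 CPM in sgNT tumours.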

How the data were processed

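Bulk RNA of 3 sgUhrf1 and 3 sgNT tumours was measured. The deposited unit is the count, whole read pairs per annotated row, not normalized. Per the submitters' processing notes, the tools were fastp, STAR and featureCounts and the build was GRCm38; per the file headers, featureCounts 2.0.1 counted read pairs in exons, summed by gene name, without strand and with the GENCODE M26 annotation, which uses the next build. Rows were therefore renamed by the GENCODE M21 exons under them (at least 50 bp of 1 gene; 13432 of 53599 rows, 41.4% of counts). All rows past filterByExpr (10503) were tested with the edgeR 4.0.16 quasi-likelihood test in R 4.3.3, with TMM scaling, Benjamini-Hochberg adjustment over these rows and a threshold of 0.05. DESeq2 1.42.0 and limma-voom (limma 3.58.1) were alternatives. CPM are counts per 1000000 TMM-scaled counts, and log2 CPM uses a prior count of 2. On simulated data for 3 against 3 tumours, 100 changes of 1 log2 unit and 100 of 2 were placed among 10503 rows. The fit recovered 19 of the smaller and 82 of the larger changes, with 6 false calls over all rows. In the tumours 2121 rows were called higher and 2066 lower, a far larger share, so these rates need not hold there. A gene that did not pass may still have changed by 1 log2 unit. SEs are from the edgeR fit.

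Hmga2, Zeb2 and Pdgfra and the 18 gene lists were chosen with earlier results of these data known. Named genes are a short set given whatever their value, up to 4 called members with the largest change per list (mean log2 CPM of at least 1; where none was called, up to 2 with the smallest p), and the 3 nearest profiles per gene; F11r, Tjp1, Krt20, Klf5, Snai1, Prrx2, Foxc1, Hopx and the other list members given only as a fold change were named after their values were seen. A few list members are counted in their lists and not reported here by name. Floors cover counting error only.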

Additional observations from a re-analysis of the deposited data

How the results depend on the processing

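Under every alternative run, Hmga2, Zeb2 and Pdgfra stayed lower in sgUhrf1 tumours. Their log2 fold changes ran from -2.52 to -1.88 for Hmga2 over 15 alternatives, and from -1.76 to -1.08 for Zeb2 and -2.11 to -1.31 for Pdgfra over 16 each. With 1 tumour left out the ranges were -2.43 to -1.88, -1.76 to -1.08 and -2.11 to -1.31. An alternative added after seeing the data asked for 50 bp in exons of protein-coding transcripts: Zeb2 and Pdgfra kept their rows and Hmga2 had none, so it gave no value.

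Rows called lower numbered 2066 and rows called higher 2121. With 1 tumour left out they ranged from 1259 to 1908 and from 1431 to 2020, and 1259 was reached without sgNT replicate 2. Without the muscle-rich pair, sgUhrf1 replicate 1 and sgNT replicate 2, 1094 rows were higher and 771 lower, and 5 mesenchymal genes were lower, not 9; fewer tumours were fitted there. With shared rows counted, 27 epithelial genes were higher, not 14, since 41 were then tested in place of 19. DESeq2 called 5 PDGF genes lower where edgeR called 3.

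Of 57 named genes, 34 kept side and direction in each alternative and 20 changed side at least once. Col14a1 stood at 0.13 (adjusted p = 0.899 in edgeR) with 200 bp of exon, since another row then stood for it. Direction reversed in 3 genes that edgeR did not call with all tumours. Ckm stood at 2.47 in limma-voom, 3.10 with the replicate block, 3.49 without the muscle-rich pair and -2.47 to 5.73 with 1 tumour left out, past the threshold without the pair (edgeR adjusted p = 0.0266) and without sgNT replicate 2 (0.0253). Atp2a1 stood at 0.65, 0.36 and 1.39 in the same settings and at -3.38 to 4.70. Retn stood at -0.01 in limma-voom and at -0.75 to 1.46 with 1 tumour left out. The cause was not tested.

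The replicate numbers did not pair the tumours: same-numbered tumours had deviations correlated at -0.0795, -0.0209 and 0.05 across genes. With the number as a block, Hmga2, Zeb2 and Pdgfra stood at -2.20, -1.54 and -1.84, and 1838 rows were higher and 1807 lower. sgUhrf1 replicate 1 correlated best with sgNT replicate 2, at 0.11, so not every tumour matched its own number best. The Hmga2 row rests on 32 counts in sgUhrf1 tumours.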
